A study of Mus musculus with 18 samples.

Results

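The insulin-like growth factor (IGF) genes were followed in mouse embryonic fibroblast (MEF) cells that carried miR-29b expression vectors with or without transforming growth factor β (TGF-β). The 9 genes were taken by name from the deposited table, which lists 55450 genes. They comprise the ligands Igf1 and Igf2, the receptor Igf1r and the binding proteins Igfbp2, Igfbp3, Igfbp4, Igfbp5, Igfbp6 and Igfbp7. Of these, 5 passed the filter on low counts and were tested (Igf1, Igf1r, Igfbp4, Igfbp6 and Igfbp7), and 4 did not (Igf2, Igfbp2, Igfbp3 and Igfbp5).

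MEF cells from a commercial collection were transfected with an empty pcDNA3 plasmid (empty vector), with a plasmid carrying human miR-29b-1 behind a rat collagen 1a1 promoter (Col1a1-miR-29b), or with the same plasmid behind the cytomegalovirus promoter (CMV-miR-29b). Each vector was studied with no further treatment and with TGF-β, which was added 6 h after transfection and left for 24 h. The 6 groups held 3 libraries each, 18 in all. Both miR-29b plasmids also carried EGFP and mRFP1, which the methods do not describe for the empty plasmid. By the methods, plasmids were given in equal molar amounts, with a larger mass of DNA for Col1a1-miR-29b than for CMV-miR-29b. The part of this difference in the results was not tested. The labels name libraries by the letters c, d and e, but in each Col1a1-miR-29b group 1 column of the table bears the letter f, which is in no label. It was tied to its group only and is called unlettered. The study gives the libraries as repeated experiments and says nothing more of separate cultures, so p-values measured the spread between these libraries.

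IGF1 and IGF2 are secreted peptides that act through the tyrosine kinase receptor encoded by Igf1r, which signals through the insulin receptor substrates to the PI3K-AKT and RAS-MAPK cascades. IGF-binding proteins hold the ligands in the extracellular space and either limit or prolong their action. IGFBP7 binds IGFs weakly and is found in the extracellular matrix. The miR-29 family is known for repressing collagens and other matrix mRNAs, and a microRNA recognizes its targets mainly through the seed, bases 2 to 8 of the mature strand. Igf1 is among the genes described as miR-29 targets.

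To show which IGF mRNAs hold a match to that seed, the mature mouse sequence (RefSeq, GRCm38.p6, 1 copy at chr6:31063025-31063047, minus strand) is printed with its seed in capitals. It is followed by the windows of the Igf1 and Igfbp4 3′ UTRs (GENCODE M21, GRCm38, plus strand) that hold the complement of the seed, TGGTGCT, in capitals.
mmu-miR-29b-3p: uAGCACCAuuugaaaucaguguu
Igf1, chr10:87931649-87931678: ttgttgttgttttttagtacaaTGGTGCTa
Igf1, chr10:87934283-87934312: tgtttggccagctacgccaatgTGGTGCTa
Igfbp4, chr11:99053211-99053240: gcatgtgtcaccTGGTGCTcacTGGTGCTc

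In the longest annotated 3′ UTR of each gene, read on the sense strand only, TGGTGCT was present in 2 of the 9 IGF genes, 2 times in Igf1 and 2 times in Igfbp4. The Igf1 matches lay 937 and 3571 bases after the stop codon of a 3′ UTR of 6308 bases, and each was followed by an A, the base opposite the first base of the microRNA. The Igfbp4 matches lay 1644 and 1654 bases after the stop codon of a 3′ UTR of 2813 bases, so that both fell within the printed window, and neither was followed by an A. The letters were not found in the 3′ UTRs of Igf1r (7267 bases), Igf2 (3050), Igfbp5 (4445), Igfbp3 (1435), Igfbp2 (312), Igfbp7 (240) or Igfbp6 (209). Among 21024 genes with an annotated 3′ UTR, 13.1% held the match. By length the share was 25.3% for 3′ UTRs of 2000 to 4000 bases and 42.1% for those of 4000 to 8000 bases, the classes of Igfbp4 and Igf1. A match is a description of the sequence and not a measured site. miR-29a-3p and miR-29c-3p share the seed, so the match does not tell the family members apart.

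Library totals ran from 65898017 to 80332633 counts, with a median of 74155860. Mir29b-1 checked the vectors, although poly(A) libraries read longer precursor transcripts and the plasmids held the human sequence. Its counts were 0 in all 6 empty vector libraries, 0, 1 and 1 in Col1a1-miR-29b, 4, 2 and 6 in Col1a1-miR-29b with TGF-β, 110, 115 and 309 in CMV-miR-29b, and 214, 203 and 293 in CMV-miR-29b with TGF-β. The CMV-miR-29b libraries stood above all others, while the untreated Col1a1-miR-29b libraries did not exceed 3 counts, the floor used here. Of 8 fibroblast markers, 7 were present in every library (Col1a1 at 745 to 2500 CPM, counts scaled to library size), whereas Thy1 was at 0 in 14 of 18 libraries and reached 0.114 CPM. The summed level of 4 epithelial markers was at most 0.964 CPM and that of 4 skeletal muscle markers at most 1.27 CPM. Of the leukocyte markers Cd68 (8.41 to 13.1 CPM) and Cd14 (5.88 to 10.3 CPM) were present, while Ptprc stayed at or under 0.343 CPM and Adgre1 was at 0 in 17 libraries.

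Levels of different genes were compared as FPKM (fragments per kilobase, scaled to library size), which was used for 16 of the 18 libraries. Igfbp7 was by far the most abundant IGF gene, with a mean of 136 FPKM (range 62.7 to 214) and rank 266 of 55450 genes. Igfbp6 followed with a mean of 5.69 FPKM (3.4 to 8.47), then Igf1r with 2.97 FPKM (2.19 to 3.93) and Igfbp4 with 1.55 FPKM (0.598 to 2.34). The ranges of Igfbp6 and Igf1r overlapped, as did those of Igf1r and Igfbp4, but not those of Igfbp7 and Igfbp6. The only ligand measured above the filter, Igf1, had a mean of 0.129 FPKM (0.0463 to 0.215), below the range of the 4 genes above it. Per unit length, the ratio of Igfbp7 to each of these genes was higher with than without TGF-β within each vector. For Igfbp4 and Igf1 the ranges of the treated and untreated groups still overlapped across vectors. To Igfbp6 the ratio was 9.9 to 10.4 in the 3 untreated groups and 39.1 to 54.2 in the 3 treated groups. To Igf1r it was 21 to 34.4 and 58.8 to 87.4, to Igfbp4 39.5 to 130 and 100 to 190, and to Igf1 736 to 1180 and 1090 to 1270.

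**Figure D1:**
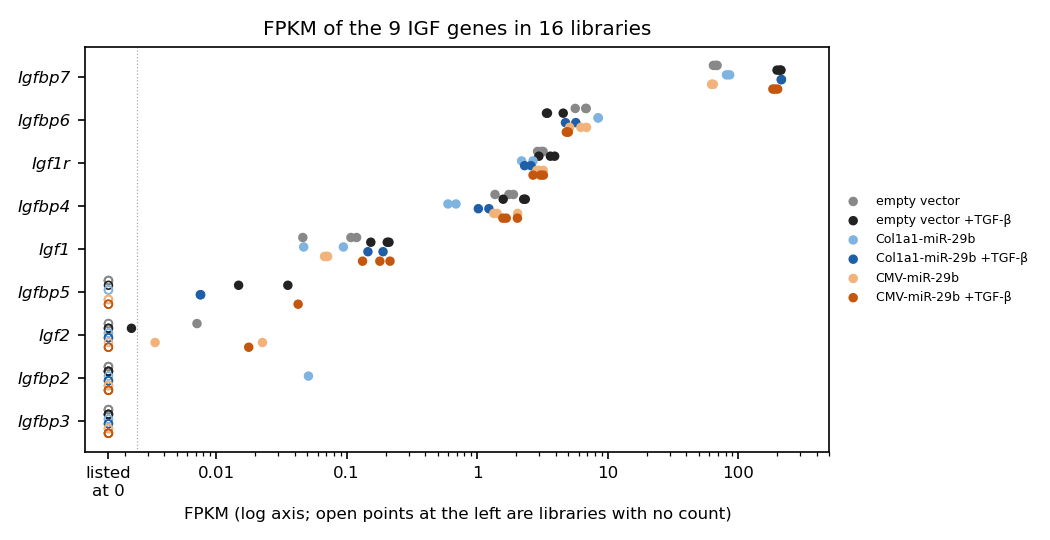
FPKM of each of the 9 IGF genes (rows) on a log axis, with 1 point for each of 16 libraries colored by group, and open points at the left for libraries with no count. Igfbp7 lies between 62.7 and 214 FPKM, apart from the other genes, and Igfbp3 has no count in any library.

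The 4 genes below the filter left few or no counts. Igfbp3, which encodes a major carrier of circulating IGFs, had 0 counts in all 18 libraries. Igfbp2 had 8 counts in the untreated Col1a1-miR-29b library c and 0 in the other 17. A count of 0 allows up to 3 counts in a library, and such limits cover counting error only. Igf2, the fetal ligand, had 0 counts in 13 libraries. Its 5 other libraries held 4 counts (empty vector c), 2 (empty vector with TGF-β, d), 12 and 2 (CMV-miR-29b, d and e) and 8 (CMV-miR-29b with TGF-β, d). Igf2 lies on chromosome 7 and shares 16048 bases on the same strand with the read-through gene Gm49394, which had 37 to 132 counts in each library, so the division of reads between the 2 genes is uncertain. Igf2 had 0 counts in all 6 Col1a1-miR-29b libraries, and a difference between vectors was not detectable at this depth.

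Igfbp5, a binding protein made by many mesenchymal cells, was at 0 counts in all 9 libraries without TGF-β. With TGF-β the counts were 0, 19 and 8 in empty vector (c, d and e), 4, 4 and 0 in Col1a1-miR-29b (c, d and unlettered) and 0, 19 and 0 in CMV-miR-29b. Counts were thus present in 5 of 9 treated libraries, and each treated group still overlapped its untreated group. With the filter loosened to at least 1 count in any library, no vector gave a call for Igfbp5 (adjusted p = 0.431, 0.643 and 0.497 in empty vector, Col1a1-miR-29b and CMV-miR-29b, with unadjusted p = 0.0481, 0.112 and 0.0563, edgeR). Igfbp2 and Igfbp5 are neighbors on chromosome 1, 5457 bases apart.

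To examine the response to TGF-β, treated and untreated libraries were compared within each vector, with the test run on all 21161 genes that passed the filter. In empty vector cells 2 of the 5 tested IGF genes were called (adjusted p under 0.05, edgeR), against 5.88% of all genes (3.88% higher and 2.01% lower): Igfbp7 rose and Igfbp6 fell. With scaling by total counts, 53.1% instead of 65.9% of all calls there were rises. In Col1a1-miR-29b cells 4 of 5 were called, against 4.32% of all genes (3% higher and 1.32% lower), with Igfbp7, Igf1 and Igfbp4 higher and Igfbp6 lower. In CMV-miR-29b cells 2 of 5 were called, against 4.95% of all genes (3.08% higher and 1.87% lower), Igfbp7 and Igf1, both higher. The median log2 fold change of the 5 genes was 0.34, 0.83 and 0.14 in the 3 vectors, beside 0.00, -0.01 and -0.00 over all genes tested. The summed level of 8 fibroblast markers was also higher with TGF-β (1780 to 2630 CPM in untreated and 3510 to 5560 CPM in treated libraries). So was that of 4 endothelial markers (0.936 to 1.85 and 2.09 to 3.03 CPM), of which Kdr was at 0 in 4 and Tek in 7 of the 18 libraries. The summed level of 4 leukocyte markers overlapped between treated and untreated libraries (17.3 to 22.8 CPM over all). The part of these markers in the results was not tested, and in bulk samples fewer cells of a type and less RNA per cell cannot be told apart.

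**Figure D2:**
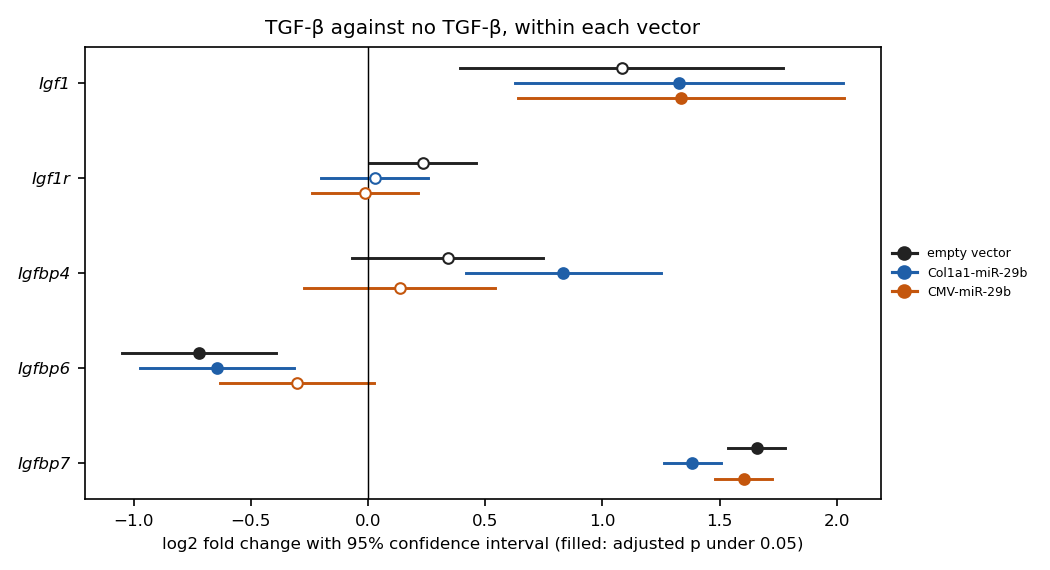
Log2 fold change with TGF-β (horizontal axis) of the 5 tested IGF genes in each vector, with bars for the 95% confidence interval and filled points for adjusted p under 0.05. Igfbp7 is filled in all 3 vectors, with estimates of 1.66, 1.38 and 1.60, and Igfbp6 lies below 0 in all 3, open in CMV-miR-29b.

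Igfbp7 showed the clearest response. In empty vector cells it stood at 93.7, 91.5 and 86.6 CPM (c, d and e) without TGF-β and at 296, 270 and 291 CPM with TGF-β. The Col1a1-miR-29b libraries stood at 108, 114 and 100 CPM (c, d and unlettered) without and 288, 290 and 262 CPM with TGF-β. In CMV-miR-29b cells they were 85.8, 86.5 and 84.5 CPM without and 248, 273 and 259 CPM with TGF-β. Every treated library lay above every untreated one. The rise was 3.16-fold in empty vector (95% confidence interval 2.90 to 3.43, log2 fold change 1.66 ± 0.06 SE, adjusted p = 8.30e-11), 2.61-fold in Col1a1-miR-29b (2.40 to 2.84, 1.38 ± 0.06 SE, adjusted p = 6.64e-10) and 3.04-fold in CMV-miR-29b (2.79 to 3.30, 1.60 ± 0.06 SE, adjusted p = 1.34e-10). It was called under each of 31 alternative settings in each vector, with log2 fold changes from 1.33 to 1.70.

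The size of the Igfbp7 rise was compared between each miR-29b vector and empty vector. It was smaller by 0.27 ± 0.08 (SE, log2 scale) in Col1a1-miR-29b than in empty vector by the fitted difference of -0.27 (unadjusted p = 0.00333), which was not called over all genes (adjusted p = 0.921). For the differences of response 0 of the 5 IGF genes and 0% of all 21161 genes were called by edgeR in either vector. An unadjusted p under 0.05 was seen for 961 genes (4.54%) in Col1a1-miR-29b and 1129 (5.34%) in CMV-miR-29b. DESeq2 called 21 and 19 genes and limma on log2(FPKM + 1) called 22 and 1, none of them an IGF gene. Hence no response of an IGF gene was shown to differ between a miR-29b vector and empty vector. A difference of response between the miR-29b vectors was not tested. Igfbp7 lies on chromosome 5 (77349240 to 77408041, minus strand), and overlaps the antisense gene Gm34648 over 7085 bases. The kit keeps strand, but whether the counting used it is not given in the sources used here, so antisense reads cannot be set apart.

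Igfbp6, a binding protein that prefers IGF2, moved the other way. In empty vector cells it stood at 8.56, 8.45 and 6.97 CPM without TGF-β and at 4.37, 5.74 and 4.45 CPM with TGF-β. The Col1a1-miR-29b libraries stood at 10.3, 10.3 and 7.83 CPM without and 7.04, 5.95 and 5.21 CPM with TGF-β. In CMV-miR-29b cells they were 6.42, 8.50 and 7.73 CPM without and 6.09, 6.04 and 6.24 CPM with TGF-β. The groups did not overlap in any vector, although in CMV-miR-29b they nearly met. Igfbp6 fell by 0.72 on the log2 scale in empty vector (0.16 SE, adjusted p = 0.00964) and by 0.64 in Col1a1-miR-29b (0.15 SE, adjusted p = 0.0249). In CMV-miR-29b the log2 fold change was -0.30 (95% confidence interval -0.63 to 0.03, adjusted p = 0.378). The CMV-miR-29b response minus that of empty vector was 0.42 ± 0.22 (SE, adjusted p = 0.929).

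The Igfbp6 calls rested on few libraries. Without the treated empty vector library c or e the adjusted p became 0.0532 and 0.0559 (log2 fold change -0.65 and -0.67), and with only the compared groups in the fit it was 0.0643. In Col1a1-miR-29b the call was lost without the untreated library c (-0.59, adjusted p = 0.107), the untreated d (-0.58, 0.105), the treated d (-0.63, 0.0919) or the treated unlettered library (-0.55, 0.129). Of 31 alternatives, 28 gave a call in empty vector and 21 in Col1a1-miR-29b. The sign stayed negative in each vector under all 31.

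Igf1, a ligand that mesenchymal cells make locally, was low but higher with TGF-β. In empty vector cells it stood at 1.21, 1.33 and 0.525 CPM (97, 107 and 41 counts) without TGF-β and at 2.36, 1.72 and 2.43 CPM (168, 134 and 177 counts) with TGF-β. The Col1a1-miR-29b libraries stood at 0.523, 1.04 and 0.569 CPM without and 2.12, 1.63 and 1.59 CPM with TGF-β. In CMV-miR-29b cells they were 0.802, 0.783 and 0.756 CPM without and 2.40, 2.02 and 1.5 CPM with TGF-β. The 9 treated libraries all lay above the 9 untreated ones. Igf1 rose in Col1a1-miR-29b (2.51-fold, 1.33 ± 0.33 SE on the log2 scale, adjusted p = 0.0305) and in CMV-miR-29b (2.52-fold, 1.34 ± 0.33 SE, adjusted p = 0.0257). In empty vector the log2 fold change was 1.08 ± 0.32 SE, which was not called by edgeR (adjusted p = 0.0647) and was called by DESeq2 (adjusted p = 0.0218).

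The Igf1 calls were sensitive to single libraries. In Col1a1-miR-29b the call was lost without the untreated library c (log2 fold change 1.14, adjusted p = 0.149), the untreated unlettered library (1.18, 0.142), the treated c (1.18, 0.120), the treated d (1.39, 0.0627) or the treated unlettered library (1.4, 0.0555), and with only the compared groups in the fit (adjusted p = 0.0837). In CMV-miR-29b it was lost without any untreated library (c 1.36, d 1.33, e 1.30, with adjusted p = 0.0833, 0.0805 and 0.0876) and without the treated c (1.17, 0.107) or d (1.31, 0.0739). In empty vector, leaving out the untreated Col1a1-miR-29b library d gave a call (1.07, adjusted p = 0.0473). The estimates on log2(FPKM + 1) were 0.13 in Col1a1-miR-29b and 0.14 in CMV-miR-29b, since 1 FPKM exceeds every Igf1 value. Igf1 was called under 3 of 31 alternatives in empty vector, under 20 of 31 in Col1a1-miR-29b, and in CMV-miR-29b under 22. Igf1 overlaps its antisense gene Igf1os over 5117 bases.

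Igfbp4, a binding protein that inhibits IGF action and is cleaved by the protease PAPP-A, responded to TGF-β with a call in Col1a1-miR-29b cells only. There it stood at 3.36, 2.90 and 2.90 CPM (c, d and unlettered) without TGF-β and at 5.02, 6.12 and 5.17 CPM with TGF-β, without overlap. It rose 1.78-fold (log2 fold change 0.83 ± 0.20 SE, adjusted p = 0.0216). In empty vector the values were 8.71, 9.38 and 6.72 CPM without and 11.9, 7.91 and 11.6 CPM with TGF-β, which overlapped (0.34 ± 0.19 SE, adjusted p = 0.410). In CMV-miR-29b they were 10.2, 6.60 and 7.01 CPM without and 8.22, 10.1 and 7.82 CPM with TGF-β, again with overlap (0.14 ± 0.19 SE, adjusted p = 0.844). The response in Col1a1-miR-29b minus that in empty vector was 0.49 ± 0.27 SE (adjusted p = 0.9999), so the responses were not shown to differ. The call was lost without the untreated d (0.80, adjusted p = 0.0861), the untreated unlettered (0.79, 0.0966) or the treated d library (0.74, 0.0980), and it held under 23 of 31 alternatives.

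Igf1r was not called with TGF-β in any vector. In empty vector it stood at 60.5, 54.5 and 57.5 CPM without and 70.5, 56.3 and 76.0 CPM with TGF-β. In Col1a1-miR-29b the values were 49.4, 40.3 and 44.6 CPM without and 43.1, 48.9 and 45.1 CPM with TGF-β. In CMV-miR-29b they were 60.9, 53.4 and 55.7 CPM without and 50.1, 60.8 and 57.5 CPM with TGF-β. Treated and untreated groups overlapped in each vector. The log2 fold changes were 0.23 (95% confidence interval 0.01 to 0.46, adjusted p = 0.276), 0.03 (-0.20 to 0.26, adjusted p = 0.966) and -0.01 (-0.24 to 0.21, adjusted p = 0.982).

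**Figure D3:**
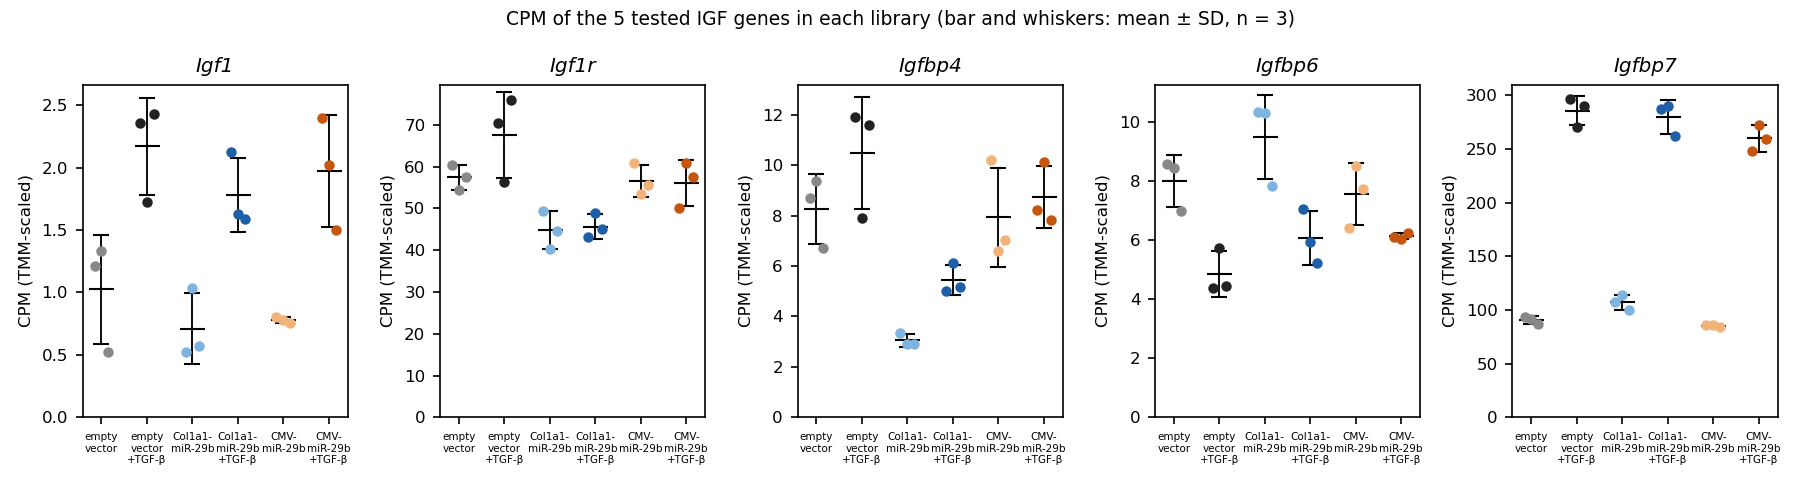
CPM of the 5 tested IGF genes (1 panel each) in the 18 libraries by group, with points for libraries and a bar with whiskers for the mean ± SD of 3. Igfbp4 is lowest in the 2 Col1a1-miR-29b groups (2.90 to 6.12 CPM), and the 9 treated libraries are the highest for Igf1 and Igfbp7.

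To examine the vectors, each miR-29b vector was compared with empty vector at the same treatment. With TGF-β, 2 of the 5 tested IGF genes were called in Col1a1-miR-29b, against 12.9% of all genes (5.31% higher and 7.63% lower), Igfbp4 and Igf1r, both lower. Without TGF-β, 2 of 5 were called, against 6.27% of all genes (2.57% higher and 3.7% lower), Igfbp4 lower and Igfbp7 higher. With scaling by total counts the share of higher genes among all calls went from 41.0% to 52.6% with and from 40.9% to 51.4% without TGF-β. In CMV-miR-29b 0 of 5 were called with TGF-β, where 0.00945% of all genes were called by edgeR, and 0 of 5 without TGF-β, where 0.00473% were. At an unadjusted p under 0.05 the CMV-miR-29b counts were 3 of 5 (Igf1r, Igfbp6 and Igfbp7) with and 0 of 5 without TGF-β, beside 12.0% and 5.46% of all genes. DESeq2 called 0 IGF genes in both, beside 1.78% and 0.154% of all genes, and limma also called 0. The 2 vectors shared the empty vector libraries, so the comparisons are not independent. The summed fibroblast markers, which include the collagens Col1a1, Col1a2 and Col3a1, were also lower in both miR-29b vectors than in empty vector. Without TGF-β they ran from 1780 to 2010 CPM in Col1a1-miR-29b and 1990 to 2250 CPM in CMV-miR-29b, against 2270 to 2630 CPM. With TGF-β they ran from 3510 to 3660 and 3710 to 4130 CPM, against 4600 to 5560 CPM. Without TGF-β the summed leukocyte markers were higher in Col1a1-miR-29b (20.2 to 20.5 against 17.9 to 19.6 CPM) and overlapped in CMV-miR-29b (17.3 to 19.8 CPM). The summed skeletal muscle markers were then lower in both (0.261 to 0.736 and 0.417 to 0.879 against 1.06 to 1.15 CPM). The part of these markers in the vector differences was not tested. The median log2 fold change of the 5 genes was -0.28 with and -0.36 without TGF-β in Col1a1-miR-29b, and -0.14 and -0.08 in CMV-miR-29b, beside medians of -0.00 to 0.02 over all genes.

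**Figure D4:**
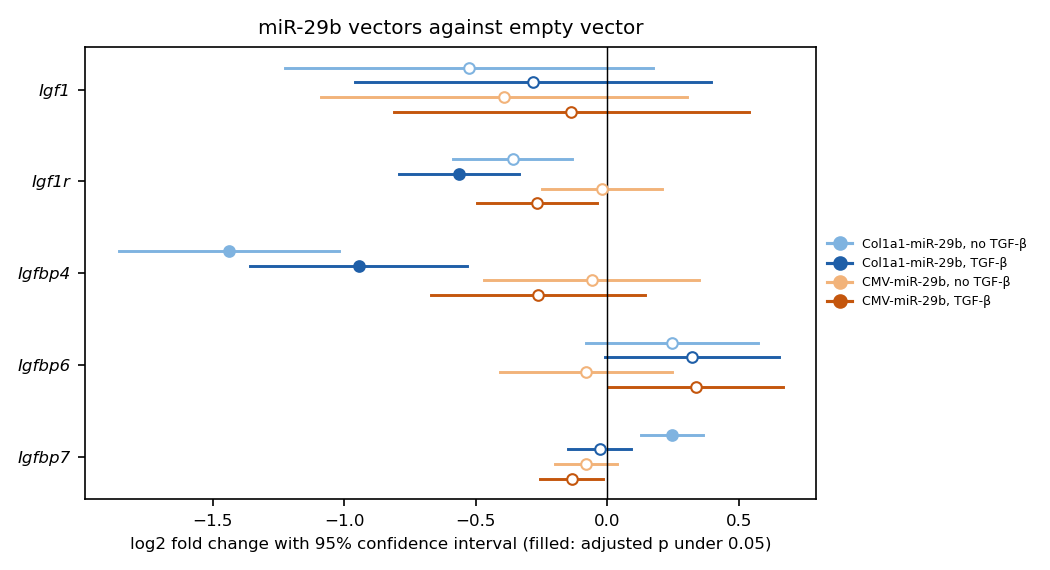
Log2 fold change of each miR-29b vector against empty vector (horizontal axis) for the 5 tested IGF genes, with bars for the 95% confidence interval and filled points for adjusted p under 0.05. Igfbp4 is the lowest point in Col1a1-miR-29b, at -1.44 without and -0.95 with TGF-β, and every CMV-miR-29b point is open.

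Igfbp4 showed the largest difference of the 5 genes between a vector and empty vector. Without TGF-β, the Col1a1-miR-29b libraries (2.90 to 3.36 CPM) lay below the empty vector libraries (6.72 to 9.38 CPM), a fall of 1.44 on the log2 scale or 2.71-fold (0.20 SE, adjusted p = 0.00146). With TGF-β they lay at 5.02 to 6.12 CPM against 7.91 to 11.9 CPM, a fall of 0.95 or 1.93-fold (0.19 SE, adjusted p = 0.00531). The call without TGF-β held under each of 31 alternatives, and that with TGF-β in 28. In CMV-miR-29b the log2 fold changes were -0.06 (95% confidence interval -0.47 to 0.35, adjusted p = 1) without and -0.26 (-0.67 to 0.14, adjusted p = 0.643) with TGF-β. Compared directly, Igfbp4 was 2.60-fold higher in CMV-miR-29b than in Col1a1-miR-29b without TGF-β (log2 fold change 1.38 ± 0.20 SE, adjusted p = 0.00447), and with TGF-β the log2 difference was 0.68 ± 0.19 SE (adjusted p = 0.0841 by edgeR and 0.0171 by DESeq2). When only the 2 groups compared entered the fit, the call without TGF-β was lost (1.38, adjusted p = 0.0758), and it held under 26 of 31 alternatives. Igfbp4 thus ranked with the Col1a1-miR-29b groups apart at the bottom, while its neighbors in the order of the other 4 groups overlapped. Mir29b-1 counts were highest in the CMV-miR-29b libraries, in which Igfbp4 was not called against empty vector. These counts come from longer precursor transcripts and do not measure the mature microRNA. The cause of the lower Igfbp4 was not tested.

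Igf1r was also lower in Col1a1-miR-29b, and the cause was not tested. Its longest annotated 3′ UTR holds no match to the seed letters, which describes the sequence only. With TGF-β the libraries lay at 43.1 to 48.9 CPM, below the empty vector libraries at 56.3 to 76.0 CPM, and Igf1r fell by 0.57 on the log2 scale or 1.48-fold (0.11 SE, adjusted p = 0.00332). Without TGF-β the ranges of 40.3 to 49.4 CPM and 54.5 to 60.5 CPM did not overlap either, with a log2 fold change of -0.36 ± 0.11 SE (adjusted p = 0.0573 by edgeR and 0.0126 by DESeq2). Leaving out single libraries turned this second value into a call in 5 cases: CMV-miR-29b c (-0.38, adjusted p = 0.0476), CMV-miR-29b with TGF-β c (-0.37, 0.0481), Col1a1-miR-29b c (-0.44, 0.0495), and empty vector with TGF-β d (-0.38, 0.0180) or e (-0.37, 0.0431). It was called under 8 of 31 alternatives and not under the other 23. With an offset for gene length and GC content it shrank to -0.20 (adjusted p = 0.219, edgeR). The offset with the replicate letters as a block gave -0.16 (adjusted p = 0.505, edgeR). In CMV-miR-29b the log2 fold changes were -0.27 (-0.49 to -0.04, adjusted p = 0.336) with and -0.02 (-0.25 to 0.21, adjusted p = 1) without TGF-β. Between the miR-29b vectors, Igf1r in CMV-miR-29b minus Col1a1-miR-29b was 0.30 ± 0.11 SE (adjusted p = 0.169) with and 0.34 ± 0.11 SE (adjusted p = 0.115) without TGF-β. The Igf1r call with TGF-β held under 28 of 31 alternatives. An offset for gene length and GC content took the difference to -0.33 (adjusted p = 0.0305), and the same offset with the replicate letters as a block to -0.29 (adjusted p = 0.167). The call was also lost by limma on FPKM with 1 or 0.1 added (adjusted p = 0.0542 and 0.0510).

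Igfbp7 differed little between vectors. Without TGF-β it was 1.18-fold higher in Col1a1-miR-29b than in empty vector (100 to 114 against 86.6 to 93.7 CPM, log2 fold change 0.24 ± 0.06 SE, adjusted p = 0.0198). The call was lost without the Col1a1-miR-29b library c (0.24, adjusted p = 0.0566) or d (0.18, 0.128) or the empty vector library d (0.24, 0.0619) or e (0.20, 0.0768), and with an offset for gene length and GC content (0.13, adjusted p = 0.185). Igfbp7 was lower in CMV-miR-29b than in Col1a1-miR-29b without TGF-β, where it fell by 0.33 on the log2 scale (0.06 SE, adjusted p = 0.0110), and where 2 of 5 IGF genes were called, with Igfbp4, against 1.81% of all genes (1% higher and 0.803% lower). Rises made up 55.5% of all calls there, and 43.5% with scaling by total counts. This call was lost without the CMV-miR-29b library c (-0.33, 0.0573) or the Col1a1-miR-29b library d (-0.27, 0.0718). The 2 Igfbp7 calls held under 23 and 27 of 31 alternatives. With TGF-β, 0 of 5 IGF genes were called between the miR-29b vectors by edgeR, against 1.93% of all genes (1.02% higher and 0.912% lower), with Igfbp4 called by DESeq2, which called 7.25% of all genes there, and the Igfbp7 difference was -0.11 ± 0.06 SE (adjusted p = 0.383). Against empty vector with TGF-β, the Igfbp7 log2 fold change was -0.03 (-0.15 to 0.09, adjusted p = 0.809) in Col1a1-miR-29b, which turned positive (0.01) with scaling by total counts and reached -0.21 (adjusted p = 0.0211) with the length and GC offset, and -0.14 (-0.26 to -0.02, adjusted p = 0.352) in CMV-miR-29b.

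Igf1 and Igfbp6 were not called between any vector and empty vector. For Igf1, which holds 2 seed matches, the log2 fold changes were -0.53 (95% confidence interval -1.23 to 0.17) without and -0.28 (-0.96 to 0.39) with TGF-β in Col1a1-miR-29b. In CMV-miR-29b they were -0.39 (-1.09 to 0.30) without and -0.14 (-0.81 to 0.54) with TGF-β. The lowest adjusted p of the 4 was 0.391, and at 38 to 177 counts a library a fall of 1.5-fold lies within each of these intervals. For Igfbp6 the 4 log2 fold changes ran from -0.08 (CMV-miR-29b without TGF-β) to 0.34 (CMV-miR-29b with TGF-β), with adjusted p of 0.204 or above.

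By their order over the 6 groups, the IGF genes fell into different patterns. The 3 treated groups led for Igf1 and Igfbp7 and came last for Igfbp6. Treated groups next to each other in that order overlapped, while the treated and untreated groups that met did not. Across vectors, however, treated and untreated Igfbp6 libraries overlapped. The treated Col1a1-miR-29b library c (7.04 CPM) lay above the untreated libraries CMV-miR-29b c (6.42 CPM) and empty vector e (6.97 CPM). For Igf1r and Igfbp4 the 2 Col1a1-miR-29b groups came last, below the lowest library of the other groups, whatever the treatment. As a description over 18 libraries that share groups and scaling, the genes with the most similar log2 CPM (Pearson r) were Pmepa1 (0.992), Anxa8 (0.991) and Ccn4 (0.991) for Igfbp7, and Col11a1 (0.933), Rin2 (0.922) and Ackr3 (0.921) for Igf1. For Igfbp4 they were Aldh18a1 (0.957), Fgf21 (0.957) and Fyn (0.948), for Igf1r Ank2 (0.974), Ufl1 (0.974) and Ptk2 (0.957), and for Igfbp6 Ddt (0.903), Acy3 (0.899) and Aldh9a1 (0.898).

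The genes around the IGF receptor were read from 5 lists of 60 genes, of which 53 were tested: IGF availability, receptor-proximal signaling, PI3K-AKT-mTOR, RAS-MAPK and regulation of Igf2 RNA. With TGF-β, 6 of 53 were called in empty vector (5 higher, 1 lower, 11.3% beside 5.88% of all genes). The counts were 4 of 53 in Col1a1-miR-29b (3 higher, 1 lower, 7.55% beside 4.32%) and 5 of 53 in CMV-miR-29b (4 higher, 1 lower, 9.43% beside 4.95%). Map2k1, the MAPK kinase MEK1, and Htra1, a secreted serine protease that can cleave IGF-binding proteins, rose in all 3 vectors. Htra1 went from 57.8 to 62.9 CPM to 76.0 to 84.9 CPM in empty vector (log2 fold change 0.45 ± 0.07 SE, adjusted p = 0.000791), and its log2 fold change was 0.52 for Col1a1-miR-29b, then 0.43 for CMV-miR-29b. The log2 fold changes of Map2k1 were 0.36, 0.41 and 0.37 in the 3 vectors.

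Foxo1, a transcription factor restrained by AKT, rose in empty vector (0.39 ± 0.07 SE, adjusted p = 0.00380), from 34.8 to 35.8 CPM to 42.5 to 48.5 CPM. Foxo1 was also called higher in CMV-miR-29b, from 32.14 to 34.2 CPM to 40.45 to 44.95 CPM. In Col1a1-miR-29b its ranges overlapped (34.38 to 36.3 CPM and 35.93 to 43.83 CPM), and it was not called by edgeR. Irs1, the adaptor that couples the receptor to PI3K, fell by 0.53 on the log2 scale in Col1a1-miR-29b (0.11 SE, adjusted p = 0.00963) and by 0.59 in CMV-miR-29b (0.11 SE, adjusted p = 0.00451). In empty vector Irs1 also fell, from 21.3 to 23.8 CPM to 14.8 to 19.55 CPM, and was called by DESeq2 but not by edgeR. Stc1, which encodes stanniocalcin-1, an inhibitor of the PAPP-A protease, fell in empty vector by 0.88 (0.24 SE, adjusted p = 0.0395), from 2.37 to 3.09 CPM to 1.32 to 1.76 CPM. Its mean also fell in Col1a1-miR-29b (1.646 to 1.157 CPM) and CMV-miR-29b (2.077 to 1.184 CPM), where edgeR gave no call.

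Against empty vector with TGF-β, 16 of 53 pathway genes were called in Col1a1-miR-29b (2 higher, 14 lower, 30.2% beside 12.9% of all genes), of which 11 belonged to the PI3K-AKT-mTOR list of 24. The median log2 fold change of the 53 genes was -0.09 beside 0.02 over all genes. Among the largest falls were those of Gsk3b, a kinase inhibited by AKT (-0.97 ± 0.24 SE, adjusted p = 0.0161, 49.0 to 51.2 against 71.6 to 135 CPM), and Grb14, an adaptor that restrains insulin receptor signaling (-0.63 ± 0.19 SE, adjusted p = 0.0362). Irs2 rose, from 54.1 to 63.0 CPM to 86.6 to 95.7 CPM (0.59 ± 0.09 SE, adjusted p = 0.000965), as did Pik3r3, a PI3K regulatory subunit (0.26 ± 0.08 SE, adjusted p = 0.0371). The count fell to 7 without the Col1a1-miR-29b library c or the empty vector library e, to 9 without the empty vector library c and to 10 without the unlettered library, all with TGF-β, and to 9 with the length and GC offset. The share of all genes called in these runs is not given here, so these counts are no result about the pathway lists alone.

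Without TGF-β, 7 of 53 were called in Col1a1-miR-29b (1 higher, 6 lower, 13.2% beside 6.27% of all genes). Irs2 rose again (0.42 ± 0.09 SE, adjusted p = 0.0125). Among the largest falls were those of Htra1 (-0.28 ± 0.07 SE, adjusted p = 0.0325) and Igf2r, the receptor that clears IGF2 (-0.25 ± 0.06 SE, adjusted p = 0.0295). The count fell to 2 without the Col1a1-miR-29b library d and to 1 without its unlettered library or the empty vector library c or d. For these runs too the share of all genes is not given, so the drop is no result about the pathway lists alone. In CMV-miR-29b 0 of 53 were called with and 0 of 53 without TGF-β by edgeR. At an unadjusted p under 0.05 there were 6 and 1, beside 12.0% and 5.46% of all genes. DESeq2 called 1, Foxo3, with TGF-β and 0 without, and limma called 0 in both. The miR-29b vectors shared their empty vector libraries here as well.

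**Figure D5:**
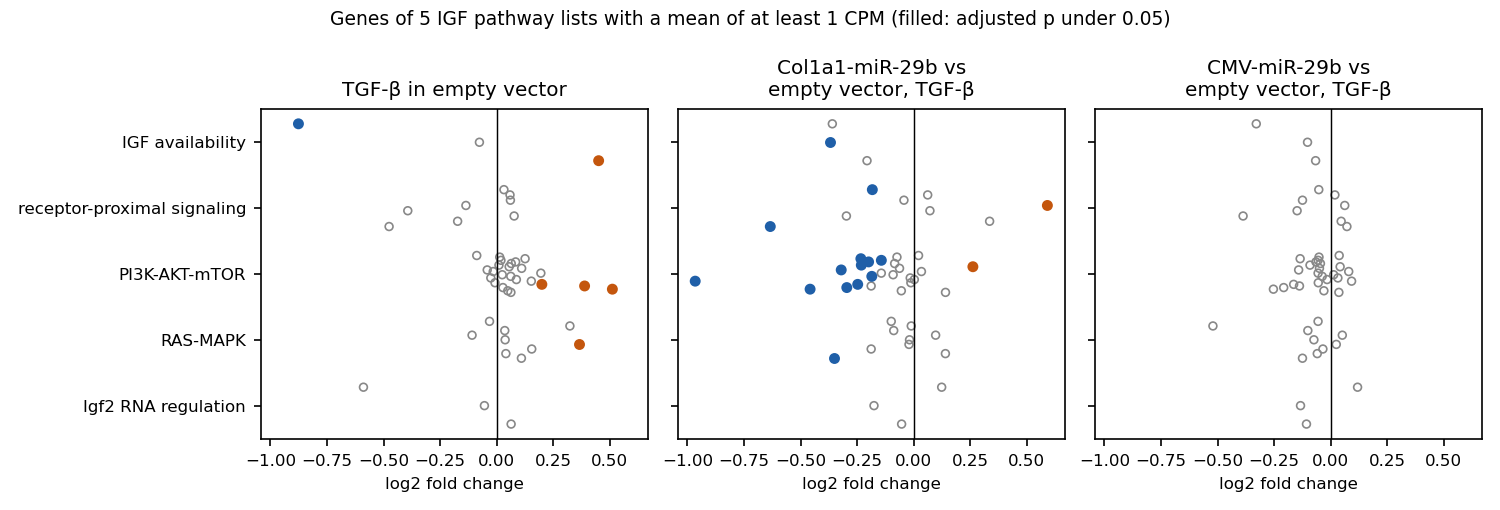
Log2 fold change (horizontal axis) of the 47 tested pathway genes with a mean of at least 1 CPM, in 5 lists (rows), for TGF-β in empty vector and for each miR-29b vector against empty vector with TGF-β. Filled points have an adjusted p under 0.05: orange ones are higher and blue ones lower, and the CMV-miR-29b panel holds no filled point.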

How the data were processed

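Poly(A) RNA of MEF cells was sequenced in 18 libraries by a commercial service with a stranded mRNA kit. Per the labels and the study's methods, reads were trimmed with cutadapt, checked with FastQC, aligned with HISAT2 and assembled with StringTie; versions and the counting tool's strand setting are not given in the sources used here. The deposited table holds raw gene counts and FPKM values by the authors, listed at 0.0001 FPKM where the count was 0. The labels name mm9, whereas gene positions in the table were identical to GENCODE M21 (GRCm38) for 52506 genes, so GRCm38 coordinates are given. Low counts (up to 40) were multiples of 4 more often than the 25% of chance (33.8 to 36.7%), so counting error may be larger than the counts imply. Per-sample FPKM columns that could not be tied to a sample (2) were not used, which left 16 libraries with FPKM, and the 2 matching count columns were tied to a group only.

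Counts were tested with edgeR 4.0.16 (R 4.3.3): genes were kept by filterByExpr, scaled by TMM (factors 0.968 to 1.03), fitted with 6 group means and tested with the quasi-likelihood F test in 11 comparisons, with Benjamini-Hochberg adjustment over 21161 genes and a threshold of 0.05. CPM values are TMM-scaled. Alternatives were DESeq2 1.42.0, limma 3.58.1 on log2-transformed FPKM with 1 or 0.1 added, other scalings and filters, counts divided by 4, the replicate block and leaving out each library. The length and GC offsets (splines with 4 degrees of freedom) and the fit without both unlettered libraries were chosen after seeing the data. Tested on simulated data (TGF-β in empty vector, 20518 genes), edgeR recovered 38.8% of 1.5-fold, 76.1% of 2-fold and 98.5% of 4-fold changes. Replicates were no duplicates (mean chi-square per gene 40.3 to 64.5). The report names all 9 genes, Mir29b-1, per comparison with a vector or TGF-β at most the 3 largest rises and 3 largest falls called among the pathway lists, and the 3 most alike genes (mean of at least 1 CPM, prior count 2). A gene that the rule also names is not reported here. Genes that fall outside this rule were named after their values were seen. The genes and lists were chosen with earlier results of these data known.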

Additional observations from a re-analysis of the deposited data

How the results depend on the processing

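The 44 log2 fold changes of IGF genes were recomputed under 31 alternatives each, 1364 values, of which 1266 kept their direction and their side of the threshold, 64 lost and 15 gained a call, and 19 changed sign. The rises of Igfbp7 with TGF-β and the lower Igfbp4 in untreated Col1a1-miR-29b kept their call in all 31. Sign changes were those of small values. For Igfbp7 in Col1a1-miR-29b against empty vector with TGF-β the log2 fold change was 0.0074 with total-count scaling, 0.0036 with the replicate block, 0.053 and 0.053 by limma on FPKM plus 1 or 0.1, and 0.011 without both unlettered libraries; for Igf1r in CMV-miR-29b against empty vector without TGF-β it was 0.020 with length and GC offsets and 0.021 with offsets and block. Leaving out single libraries gave ranges that crossed 0 for Igf1 (-0.29 to 0.024, with TGF-β), Igfbp4 (-0.30 to 0.053, without TGF-β) and Igfbp6 (-0.18 to 0.0065, without TGF-β) in CMV-miR-29b against empty vector, for Igf1r there without TGF-β (-0.091 to 0.016) and with TGF-β in CMV-miR-29b (-0.080 to 0.067) and Col1a1-miR-29b (-0.038 to 0.099), and for Igfbp7 in treated Col1a1-miR-29b (-0.073 to 0.0094).

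The number of IGF genes called moved as follows, and the cause was not tested. With TGF-β it was 1 in empty vector and 2 in Col1a1-miR-29b with only the groups compared. In Col1a1-miR-29b it was 1 with the replicate block, 1 and 1 by limma, 1 without both unlettered libraries and 1 with offsets and block. In CMV-miR-29b it was 1 with the block, 1 and 1 by limma, and 1 with offsets and block. For Col1a1-miR-29b against empty vector with TGF-β it was 0 and 0 by limma and 0 with offsets and block. Without TGF-β it was 1 with only the groups compared, the block, the offsets, or offsets and block. Between the miR-29b vectors it was 1 by DESeq2 with TGF-β, and without TGF-β 0 with only the groups compared, 1 with the block, 1 and 1 by limma, and 0 with offsets and block. It was higher, at 3, for TGF-β in empty vector by DESeq2 and with counts divided by 4, for untreated Col1a1-miR-29b against empty vector by DESeq2, with at least 10 counts in every library and with counts divided by 4, between the untreated miR-29b vectors by DESeq2, and for treated Col1a1-miR-29b against empty vector with the offsets. Leaving out single libraries gave 1 to 3, 1 to 4 and 1 to 2 genes for TGF-β in the 3 vectors, 1 to 3 for untreated Col1a1-miR-29b against empty vector and 1 to 3 between the untreated miR-29b vectors. Calls over all genes moved with the setting too. DESeq2 called 9.21% of all genes for TGF-β in empty vector and 13.1% for untreated Col1a1-miR-29b against empty vector (edgeR 5.88% and 6.27%). Between the treated and untreated miR-29b vectors DESeq2 called 7.25% and 8.02% (edgeR 1.93% and 1.81%). These counts are thus no result about the IGF genes alone.

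Of the pathway genes, TGF-β in Col1a1-miR-29b gave 7 by DESeq2, 7 with total-count scaling and 2 with the block, by either limma fit, without both unlettered libraries, or with offsets and block; in CMV-miR-29b it gave 2 with only the groups compared. Treated Col1a1-miR-29b against empty vector gave 7 with only the groups compared, 8 with the block, 5 and 4 by limma, 10 without both unlettered libraries, 9 with offsets, 3 with offsets and block, and 7 to 19 without single libraries; treated CMV-miR-29b gave 1 by DESeq2. Untreated Col1a1-miR-29b gave 13 by DESeq2 and 4 with only the groups compared. It gave 0 with the block, by both limma fits, without both unlettered libraries and with offsets and block, and 1 to 9 without single libraries. Over all genes DESeq2 called 7.16% for TGF-β in Col1a1-miR-29b, 1.78% for treated CMV-miR-29b and 13.1% for untreated Col1a1-miR-29b against empty vector. With the block, fewer of all genes were called too, as given below. For the remaining settings the share of all genes is not given here, so these counts are no result about the pathway genes alone.

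The library letters showed little pairing of the samples. Deviations from the group means correlated at a mean r of 0.015 over 36 same-letter pairs (-0.107 to 0.168) and -0.0082 over 70 others. An r above 0.1 was seen in 7 of the 36 and 7 of the 70 pairs. Such correlations cannot exclude that libraries of the same letter came from the same experiment. With the letters as a replicate block, which leaves 2 libraries in each Col1a1-miR-29b group, calls over all genes went from 1245 to 932, 914 to 394 and 1047 to 790 for TGF-β in the 3 vectors, from 2738 to 1152 and 1327 to 161 for treated and untreated Col1a1-miR-29b against empty vector, and from 408 to 13 and 382 to 29 between the treated and untreated miR-29b vectors. At 3 libraries a group, changes near 1.5-fold were often missed on simulated data, and genes at 0 counts are limited by depth.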
